A study of Mus musculus with 6 samples.

Results

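Stretches of the mouse autosomes with few listed 5-hydroxymethylcytosine (5hmC) positions were examined in E14, a long-established embryonic stem cell line from a male mouse. The 19 autosomes were divided into windows of 100 kb, and a window is named sparse here when it held 50 to 200 listed 5hmC cytosines. Of 24731 autosomal windows up to the last listed base, 2262 (9.15%) met this rule. The windows were chosen by their 5hmC site number, so that their low 5hmC density is the selection and not a finding. Context, reads and strand pairing of 5hmC come from the same list and are descriptions too. The list of 5-formylcytosine (5fC) took no part in the choice, but no test on it could be run, since each table holds 1 pooled value per cytosine. Ratios of 5fC to 5hmC, and matches between the lists, also use the 5hmC list that made the selection. They are therefore not independent of the rule.

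The study made 6 Pvu-Seal-seq libraries from unmodified, untreated E14 cells grown in serum and LIF on gelatin. Technical replicates numbered 2 for 5hmC and 2 for 5fC at passage 14, and 2 for 5hmC from a separate culture at passage 12. The assay cuts DNA with PvuRts1I, an enzyme that recognises glucosylated or hydroxymethylated cytosine and cuts a short distance away, then couples an azide glucose and biotin to the base and captures these fragments on streptavidin. The labels describe these steps for 5hmC, while the sources used here do not state the chemistry for 5fC. The values used are pooled reads per listed cytosine, with at least 2 reads at each. On the nuclear chromosomes these were 264006904 reads for 5hmC and 102252280 for 5fC. No value below has a replicate error. Intervals given are 95% Wilson intervals that treat sites as independent, although neighbours are not, and they hold counting error alone. A read number does not tell how many cells carried the mark, and absence from a list does not show absence of the mark.

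TET enzymes oxidise 5-methylcytosine to 5hmC and then to 5fC, which the glycosylase TDG can excise so that base repair restores plain cytosine. In embryonic stem cells 5hmC is known from gene bodies, enhancers and promoters, and it is scarce in compact, gene-poor chromatin. Mammalian cytosine methylation lies mainly in CG dinucleotides, where each strand carries a cytosine, and a CG with its partner on the other strand forms a dyad. No sequence or gene is given for the windows, because the sequence and gene tables used here are of another genome build (GRCm38) than the mm9 of the files.

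The sparse windows formed the left shoulder of a broad distribution. Among autosomal windows, 835 had no listed 5hmC site, 251 had 1 to 49, 8101 had over 200 and up to 600, and 13282 had over 600. The last 2 classes are named middle and dense windows below. The median sparse window held 165 5hmC sites and 1272 5hmC reads, and 65.9% of sparse windows held at least 150 sites. The 5th and 95th percentiles were 91 and 197 sites. Together these windows held 356196 5hmC sites, 1.74% of the autosomal sites, and 1.11% of the autosomal 5hmC reads. On chromosome X, present as 1 copy in male cells and outside the rule, 848 of 1667 windows (50.9%) held 50 to 200 sites.

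**Figure D1:**
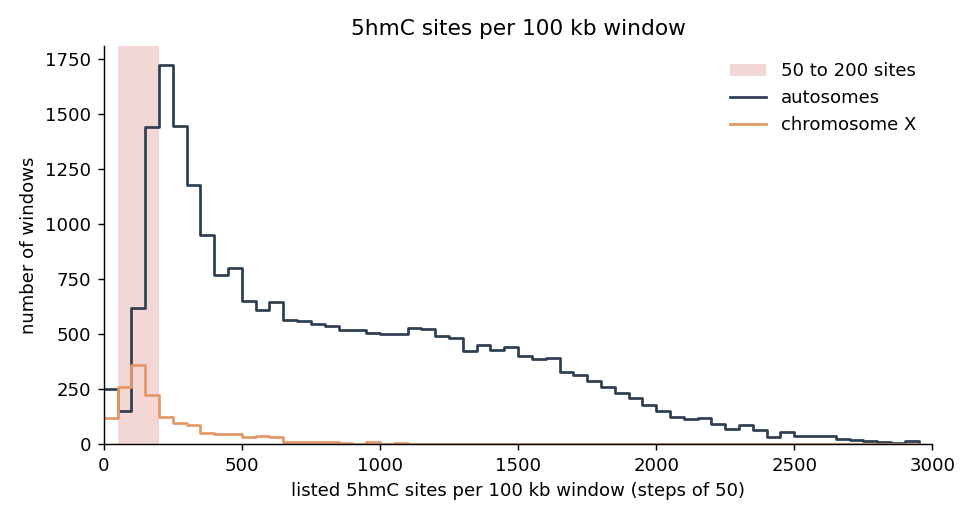
Number of 100 kb windows (y axis) by listed 5hmC sites per window in steps of 50 (x axis) for the autosomes and chromosome X, with the range of 50 to 200 sites shaded. Windows with 0 sites and the 27 autosomal windows above 3000 sites are not drawn; the shaded range holds 2262 autosomal and 848 X windows.

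Neither limit of the rule marked a break in the data. The 313 windows with 191 to 200 5hmC sites had 0.126 5fC sites per 5hmC site, a CG share of 89.3% and a mean of 8.19 reads per 5hmC site. The 332 windows next above, with up to 210 sites, had 0.130, 88.9% and 8.48 reads. At the lower limit, 22 windows with 50 to 59 sites had 0.210 5fC sites per 5hmC site and a mean of 12.4 reads. The 35 windows with 40 to 49 sites had 0.210 and a mean of 11.4 reads. The median was 6 reads per 5hmC site on both sides of either limit.

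A window on chromosome 15 from 14400001 to 14500000 (mm9, here and throughout), picked after the values were seen as the closest to the medians, shows what such a window looks like. It held 166 5hmC sites with 1314 reads, 147 of them at CG, and 18 5fC sites with 280 reads. Each of its 10 parts of 10 kb held between 5 and 35 5hmC sites, and 3 of the 10 held no 5fC site. Its 118 CG dyads with 5hmC included 29 listed on both strands. The deepest 5hmC cytosines, with 35 reads each, were CG sites at position 14473280 on the plus strand and 14488638 on the minus strand, and neither was listed for 5fC. The CG at 14498373 (plus) had 33 5hmC and 18 5fC reads, and that at 14475892 (minus) 28 and 32. Most of the window was thus a thin scatter of CG sites with few reads, and most of its deeper sites had no listed 5fC.

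Sites were spread over nearly the whole of most windows rather than packed in a corner. In 2051 of the 2262 windows (90.7%) each 10 kb part had a 5hmC site, against 98.0% of middle and 99.4% of dense windows. The median 10 kb part held 15 sites, with 3 and 32 at the 5th and 95th percentiles. The fullest part held a median of 18.9% of its window's sites, against 18.2% in middle and 15.7% in dense windows. In 20 sparse windows a single part held over 50% of the sites. Listed 5hmC dyads lay a median of 173 bases from the nearest other, compared with 34 bases in dense windows, and 8.96% had none within 1000 bases against 0.0742%.

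Windows with an empty part stood apart from the others in both marks. The 211 sparse windows with at least 1 empty part had 0.206 5fC sites per 5hmC site and a mean of 11.3 reads per 5hmC site (median 7). The 2051 without an empty part had 0.117 and a mean of 7.87 (median 6). The CG share was 83.5% in the former and 89.3% in the latter. Of the windows with 50 to 99 sites, 49.7% had all parts filled, against 95.8% of those with 150 to 200. The part played by the empty parts in these differences was not tested.

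5fC was scarcer still than 5hmC. Every sparse window had a 5fC site, and the median window had 18 (5th and 95th percentiles 8 and 35). The fewest was 1 and the most 100. They held 43807 5fC sites in all, 0.708% of the autosomal 5fC sites against 1.74% for 5hmC. Per 5hmC site there were 0.123 5fC sites, 0.174 in middle and 0.328 in dense windows, so the ratio was 2.67 times higher in dense windows. With only sites of at least 10 reads counted for both marks, the ratios were 0.260 in sparse and 0.457 in dense windows, which lie closer together. By reads the ratio was 0.203 in sparse and 0.404 in dense windows. Single sparse windows had site ratios of 0.0577 (5th percentile) to 0.236 (95th percentile), which overlap the 0.184 to 0.435 of dense windows.

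The ratio did not fall steadily towards the emptiest windows. It was 0.121 for windows with 150 to 200 5hmC sites and 0.120 for those with at least 100 but under 150, then 0.185 for those with 50 to 99 and 0.234 for the 251 windows with 1 to 49 sites. Mean reads per 5hmC site moved alongside, at 8.06, 8.03, 9.98 and 12.1, while the median was 6 reads in each of these classes. The lowest 5fC ratio, the lowest mean reads per site and the highest CG share were all found between 100 and 200 sites. The share of windows with empty parts rose over the same steps.

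**Figure D2:**
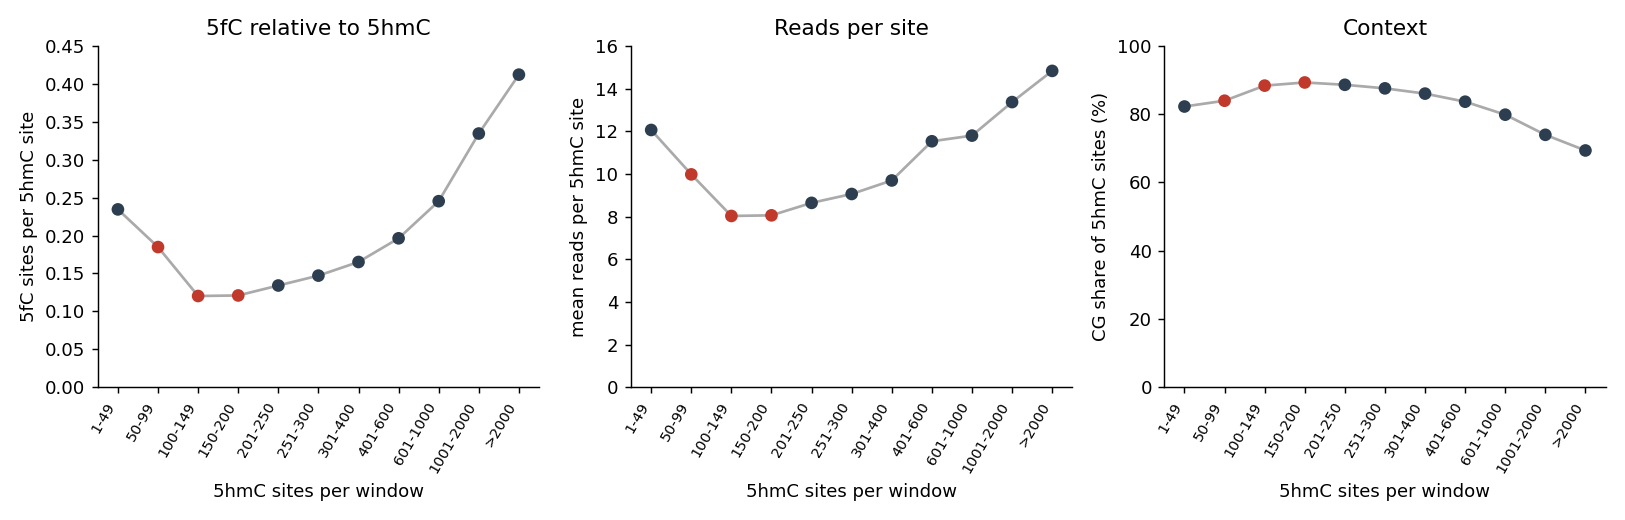
5fC sites per 5hmC site (left), mean reads per 5hmC site (middle) and CG share of 5hmC sites in percent (right) for autosomal windows grouped by 5hmC sites per window (x axis), each point pooled over its windows with no error bar, and points for 50 to 200 sites in red. The ratio is lowest at 0.120 for windows with 100 to under 150 sites and reaches 0.412 above 2000 sites.

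Most 5fC sites in sparse windows were also 5hmC sites, while few 5hmC sites were 5fC sites. On the same base and strand, 66.0% of 5fC sites were listed for 5hmC (interval 65.5 to 66.4%), against 72.7% in middle and 76.8% in dense windows. Conversely, the 5fC list held 8.11% of the 5hmC sites (8.02 to 8.20%), against 12.6% and 25.2%. At the median, 5hmC sites also listed for 5fC carried 13 reads and those without 5fC carried 5. When a match on either strand of a CG dyad was allowed, 85.6% of dyads with 5fC were matched in 5hmC and 10.2% of those with 5hmC in 5fC.

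Reads per site were low for both marks. The median 5hmC site had 6 reads, with quartiles of 4 and 10, compared with a median of 9 in dense windows. The median 5fC site had 10 reads against 12. Sites above 64 reads made up 0.213% of 5hmC sites in sparse windows and 1.13% in dense windows, and 74.3% of 5hmC sites had under 10 reads. The mean reads per 5hmC site of single windows lay between 6.39 and 11.1 (5th and 95th percentiles). Overlap with 5fC, the CG share and pairing across strands all rose with 5hmC reads up to 64 reads, so the windows were also compared at equal reads.

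At equal 5hmC reads the CG sites of sparse windows were less often listed for 5fC than those of dense windows. Among CG sites with 5 to 8 5hmC reads, 4.51% in sparse windows were 5fC sites (interval 4.38 to 4.64%), 6.34% in middle and 14.4% in dense windows. With 17 to 32 reads the shares were 28.2%, 31.1% and 40.6%, and above 64 reads 89.2%, 89.9% and 92.0%. With dense windows weighted to the reads of the sparse windows, the share was 18.1% in dense and 8.14% in sparse windows. As a ratio, the classes lay widest apart at the sites with the fewest reads. In sparse windows of chromosome X the weighted share was 8.59%.

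Strand pairing of 5hmC differed little between the classes at equal reads. Of 258876 CG dyads with 5hmC in sparse windows, 22.3% were listed on both strands (interval 22.2 to 22.5%), compared with 30.5% in middle and 42.5% in dense windows. At 9 to 16 reads per dyad the shares were 35.6%, 36.2% and 35.3%, and at 17 to 32 reads 60.2%, 61.7% and 59.7%. Weighted to the reads of the sparse windows, dense windows had 22.4% and middle windows 22.9%. The curves parted at the top, where 81.5% of sparse-window dyads above 64 reads were on both strands (79.3 to 83.4%) and 87.1% in dense windows.

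For 5fC, pairing across strands stayed lower in sparse windows at equal reads. Of 30864 dyads with 5fC, 8.40% were on both strands (interval 8.10 to 8.72%), and 21.4% in dense windows. At 17 to 32 5fC reads per dyad the shares were 15.05% and 28.4%, and at 33 to 64 reads 43.9% and 58.9%. Weighted to the reads of sparse windows, dense windows had 13.9%. Where a dyad was listed on 1 strand for each mark, both marks were on the same strand in 83.3% of sparse-window dyads (82.7 to 83.9%, of 14580) and in 79.5% of those in dense windows. Neither mark favoured a strand of the reference, with 50.0% of 5hmC and 50.2% of 5fC sites on the plus strand.

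**Figure D3:**
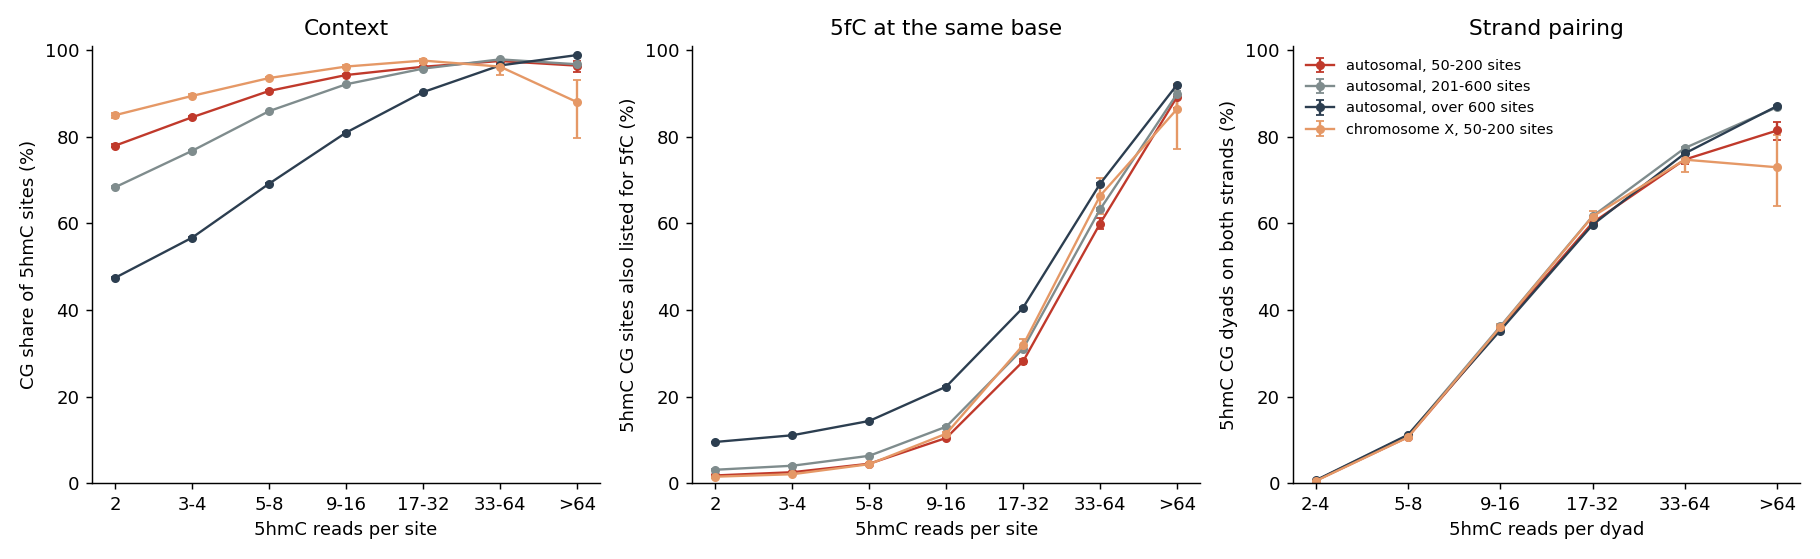
CG share of 5hmC sites (left), share of 5hmC CG sites also listed for 5fC (middle) and share of 5hmC CG dyads on both strands (right), all in percent, by 5hmC reads per site or per dyad, for 4 classes of windows with 95% Wilson bars. Sparse and dense windows lie apart on the left and in the middle at low reads (4.51% and 14.4% with 5fC at 5 to 8 reads) but together on the right (35.6% and 35.3% at 9 to 16 reads).

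5hmC sites in sparse windows lay in CG more often than those of middle and dense autosomal windows, and less often than those of chromosome X windows with 50 to 200 sites (91.8%). The CG context took 88.9% of 5hmC sites (88.8 to 89.0%) and 92.7% of 5hmC reads, against 85.4% of sites in middle and 74.4% in dense windows. The remainder was 6.04% CA, 2.84% CT and 2.21% CC. Outside CG, CA took 54.5% of sites, against 53.6% in middle and 48.3% in dense windows. At equal reads the difference in CG share was larger. Sites with 2 reads were CG in 78.0% of cases in sparse and 47.5% in dense windows, while above 64 reads the shares were 96.4% and 98.9%. Weighted to the reads of sparse windows, the CG share of dense windows was 68.1%.

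Part of the non-CG sites lie at a fixed distance from a listed CG. Downstream was read along the strand of the non-CG site, and a dyad counted when listed on either strand. In sparse windows 25.6% of non-CG 5hmC sites (interval 25.1 to 26.0%) had a 5hmC dyad 20 to 23 bases downstream. In middle windows the share was 44.4% and in dense windows 64.4%. At 30 to 33 bases the shares were 1.78%, 2.99% and 5.35%. Without the non-CG sites that have such a partner, the CG share was 91.5% in sparse, 91.3% in middle and 89.1% in dense windows. The pooled shares of the classes thus lay closer together than with these sites counted. A partner can be found only where a dyad is listed, and dyads numbered 114.4 per sparse and 674.9 per dense window. The CG share at equal reads was not computed without partnered sites. Non-CG sites without a partner numbered 13.0 per sparse and 117.5 per dense window on average, and CG sites 140.0 and 961.8.

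Pooled over sites, the context of 5fC differed from that of 5hmC by more in sparse windows than in dense ones. CG accounted for 76.4% of 5fC sites (76.0 to 76.8%) against the 88.9% of 5hmC, whereas in dense windows the marks had 74.8% and 74.4%. By reads the marks differed in both classes, with CG taking 80.3% of 5fC and 92.7% of 5hmC reads in sparse windows and 78.8% and 86.1% in dense windows. At 17 to 32 reads per site the CG shares of 5fC and 5hmC were 82.1% and 96.2% in sparse and 78.2% and 90.3% in dense windows. Only 15.3% of non-CG 5fC sites had a 5fC dyad 20 to 23 bases downstream, against 59.2% in dense windows. Without partnered sites CG made up 79.2% of 5fC sites in sparse and 87.9% in dense windows, the reverse of the order for 5hmC. With partnered sites counted, 5fC had the same order as 5hmC (76.4% and 74.8%). A partner can be found only where a 5fC dyad is listed, and these numbered 13.6 per sparse and 261.5 per dense window. Of the 14909 5fC sites with no listed 5hmC, 48.5% were outside CG, compared with 10.8% of the shared ones. Non-CG 5fC sites without a partner were listed for 5hmC in 27.2% of cases in sparse and 45.8% in dense windows.

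Of these comparisons, 6 pooled and 3 equal-read measures were also computed by chromosome. In all 19 autosomes the sparse windows had fewer 5fC sites per 5hmC site, a higher CG share, fewer reads per 5hmC site and fewer dyads on both strands than the middle and the dense windows of the same chromosome. At equal reads, dense windows had the higher share of 5hmC CG sites with 5fC on 19 of 19 chromosomes, by 7.13 to 13.2 percentage points. The CG share at equal reads was lower in dense windows on all 19, with differences, dense minus sparse, between -22.993 and -15.3 points. For the share of dyads on both strands at equal reads, 11 chromosomes had the higher value in dense windows and 8 in sparse windows, and the difference, dense minus sparse, lay between -0.98 and 1.45 points. Reads per 5fC site kept the order in 16 chromosomes against middle and 18 against dense windows.

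Chromosomes differed in how many of their windows were sparse. Chromosome 1 had 280 sparse windows, 14.2% of its total, followed by chromosome 14 with 13.3%, chromosome 7 with 13.2% and chromosome 4 with 12.8%. Chromosome 11 had 10 (0.820%) and chromosome 8 had 51 (3.87%). The median chromosome had 8.58%. The sparse windows of chromosomes 8 and 11 also had higher values than those of most autosomes. Chromosome 8 had 0.163 5fC sites per 5hmC site, 27.1% of dyads on both strands and a mean of 10.9 reads per 5hmC site. Chromosome 11 had 0.158, 27.0% and 9.40 reads. In their dense windows the values were 0.379, 47.7% and 15.7 reads on chromosome 8, and 0.396, 47.9% and 16.1 reads on chromosome 11. No other autosome had dense windows above 0.338, 42.3% (both chromosome 4) or 13.0 reads (chromosome 19). On chromosomes 8 and 11 the higher values were thus not confined to sparse windows. Of their sparse windows, 43 of 51 and 6 of 10 had all parts filled, and with those alone the site ratios were 0.139 and 0.124. On chromosome 13, where 75.0% were filled, the ratio was 0.170, the highest of the 19, and 0.135 in the filled windows. Chromosome 5 was lowest at 0.108. Filled windows ranged from 0.101 to 0.139 over chromosomes. Chromosome copy number was not measured here.

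**Figure D4:**
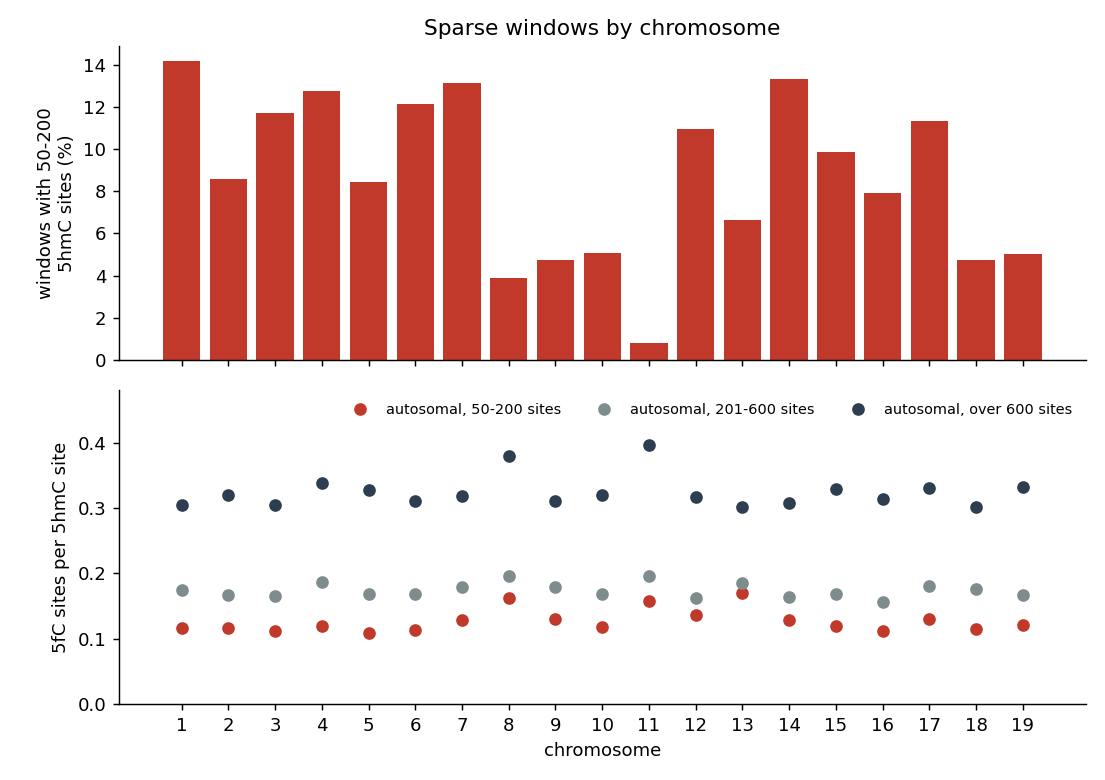
Share of autosomal windows with 50 to 200 5hmC sites in percent (top) and 5fC sites per 5hmC site in sparse, middle and dense windows (bottom) for each of the 19 autosomes; points are pooled over windows and have no replicate error. The share of sparse windows runs from 0.820% on chromosome 11 to 14.2% on chromosome 1, and the sparse point lies lowest on every chromosome.

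Sparse windows adjoined each other more than they stood alone. They fell into 990 runs of adjacent windows, of which 554 were single windows, 186 were pairs and 88 were triplets. Of all sparse windows, 75.5% lay in runs of 2 or more (interval 73.7 to 77.2%, treating windows as independent, which they are not). Runs of 5 or more numbered 115 on 17 chromosomes and held 884 windows (39.1%). Runs of 10 or more numbered 23 on 13 chromosomes and held 310 windows (13.7%). A window next to a sparse one was sparse in 56.5% of cases. At 5, 10, 20 and 50 windows away the shares were 40.3%, 30.5%, 20.98% and 12.7%, against 9.15% of all autosomal windows.

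Windows of long runs held fewer 5hmC sites. The median 5hmC site number was 175 in single windows, 167 in runs of 2 to 4, 160 in runs of 5 to 9 and 143 in runs of 10 or more. The 5fC sites per 5hmC site fell along the same classes from 0.135 to 0.124, 0.117 and 0.108, and mean reads per 5hmC site from 8.65 to 8.19, 7.81 and 7.40. Dyads on both strands made up 23.3%, 22.6%, 21.6% and 21.03%. All 10 kb parts were filled in 85.4%, 90.0%, 94.8% and 94.2% of the windows of these classes. The part played by empty parts in the trends with run length was not tested. Within runs of 5 or more, windows at the edge had a median of 169 5hmC and 18.5 5fC sites. Those more than 2 windows deep had 144 and 14. The ratio was 0.120 at the edge and 0.110 inside.

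Most runs ended in middle windows. Of 1980 run edges, 90.1% met a window with over 200 and up to 600 sites, 2.73% a window above 600, 5.25% a window with 1 to 49 and 1.41% a window with none. The first window outside a run of 5 or more had a median of 229 5hmC and 32 5fC sites, which the rule forces out of the range. At 2 windows out 43.7% were sparse again and the median was 211. At 10 windows out the median was 253 5hmC and 38 5fC sites, with 30.5% sparse. Long runs thus lay in wider territory of low density, far below the median of 711 over autosomal windows with a site.

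**Figure D5:**
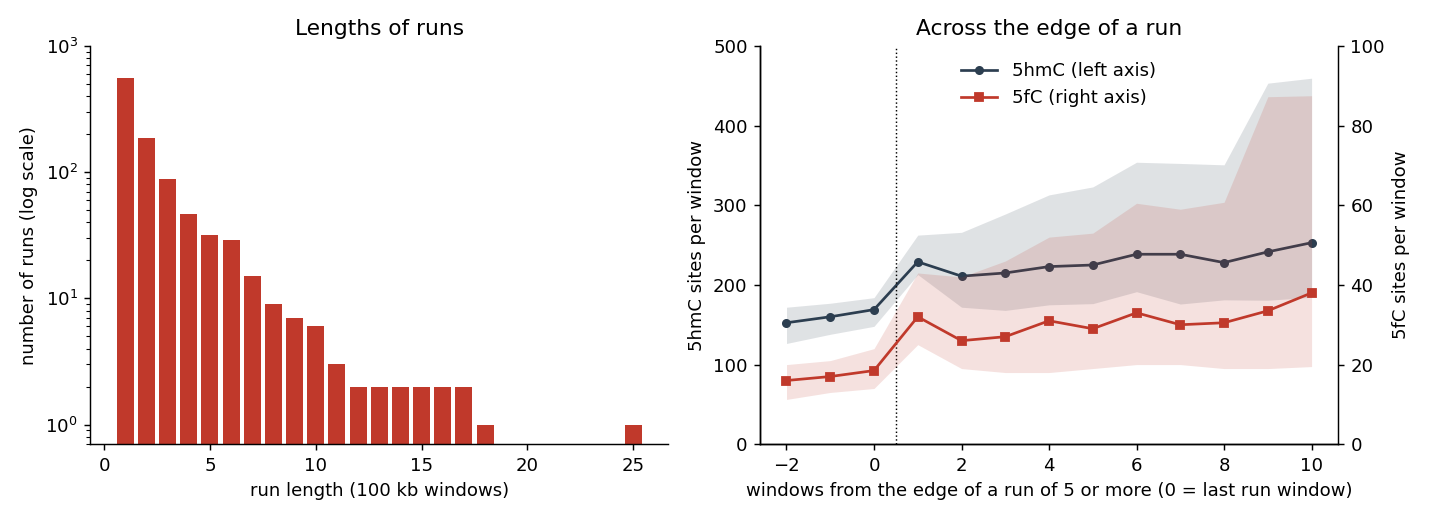
Left, number of runs (log axis) by run length in 100 kb windows; right, 5hmC (left axis) and 5fC (right axis) sites per window by distance from the edge of the 115 runs of 5 or more, as medians with quartiles shaded, windows with no 5hmC site left out. The longest run has 25 windows, and medians rise from 169 to 229 5hmC sites across the edge and lie between 211 and 253 to 10 windows out.

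The 5 longest runs covered between 1.6 and 2.5 Mb. The longest lay on chromosome 7 from 59500001 to 62000000, with 25 windows of 55 to 190 5hmC sites (median 130). Its 5fC sites numbered 1 to 30 per window (median 17), or 0.125 per 5hmC site. It had 3340 5hmC sites with a CG share of 81.1%, below the 88.9% of all sparse windows, and 517 of its 2193 dyads (23.6%) were on both strands. Its deepest cytosine, at 60173363 on the minus strand, had 58 5hmC reads. The run was bounded by windows of 265 and 325 sites, and the window beyond the first of these held 112.

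The next run, of 18 windows on chromosome 3 from 70400001 to 72200000, held 103 to 189 5hmC sites per window (median 150) and 7 to 30 5fC sites. Its CG share was 91.0% and its 5fC sites per 5hmC site numbered 0.0992. The flanking windows had 346 and 219 sites. A run of 17 windows on chromosome 2 from 98600001 to 100300000 had 105 to 197 5hmC sites and 2 to 20 5fC sites per window, at 0.0921 5fC sites per 5hmC site, the lowest of the 5. It began beside a window of 541 sites and ended at a window with none.

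A run of 17 windows on chromosome 14 from 109400001 to 111100000 had 93 to 188 5hmC and 5 to 25 5fC sites per window. Of its dyads 18.97% were on both strands. Its deepest site, on the minus strand at 109402171, had 150 5hmC reads. The fifth, of 16 windows on chromosome 4 from 91400001 to 93000000, had 91 to 178 5hmC and 8 to 27 5fC sites per window. The 5 runs had between 7.13 and 7.72 mean reads per 5hmC site, and 4 of them fell below the 0.123 5fC sites per 5hmC site of all sparse windows.

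Among windows with at least 100 5hmC sites, those with the most 5fC for their 5hmC were also the deepest. On chromosome 8 from 20000001 to 20100000 there were 75 5fC and 113 5hmC sites (0.664), and from 19800001 to 19900000 there were 100 and 156 (0.641). The third lay on chromosome 13 from 66700001 to 66800000 with 57 and 102 (0.559). The same 3 windows had the most reads per 5hmC site, at 48.8, 75.0 and 33.3, with medians of 11, 12 and 12. Their CG shares were 66.4%, 67.3% and 67.6%. In the chromosome 8 windows 6 and 4 of the 10 parts had no site, and 0 in that of chromosome 13. The window that follows 20100000 on chromosome 8 had no listed 5hmC site. Means far above the medians show that a few cytosines held many of their reads.

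Also among windows with at least 100 5hmC sites, those with the fewest 5fC sites per 5hmC site had few reads per site. On chromosome 2 from 98700001 to 98800000, inside the run described above, 140 5hmC sites came with 2 5fC sites. On chromosome 19 from 13600001 to 13700000 the numbers were 136 and 2, and on chromosome 7 from 101200001 to 101300000 they were 141 and 3. All 3 had every part filled, CG shares of 91.4%, 94.9% and 87.2%, and means of 6.24, 6.43 and 6.34 reads per 5hmC site, near the 5th percentile of 6.39 over sparse windows. Of their 5hmC dyads 20 of 108 (18.5%), 19 of 110 (17.3%) and 21 of 102 (20.6%) were on both strands, beside 22.3% over all sparse windows. These shares rest on few dyads and were not compared at equal reads. In the same set of windows, the fewest reads per site, 5.53, 5.57 and 5.62, were found on chromosome 14 from 109800001 to 109900000, chromosome 16 from 61900001 to 62000000 and chromosome 4 from 77400001 to 77500000. These had 107, 143 and 112 5hmC and 5, 8 and 3 5fC sites, and the first lies inside the chromosome 14 run. With so few 5fC sites and dyads per window, such ratios and dyad shares carry a large counting error.

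A few cytosines carried very many reads. The deepest 5hmC site of a sparse window was a CG at position 111686780 on the plus strand of chromosome 2, with 1632 5hmC and 395 5fC reads. It held 67.1% of the 5hmC reads of its window, whose mean fell from 24.1 to 8.02 reads per site without it. Of 356196 5hmC sites and 43807 5fC sites in sparse windows, 3 and 0 exceeded 1000 reads. In middle windows these were 87 of 2915373 5hmC and 111 of 506065 5fC sites. Dense windows had 71 of 17158515 and 52 of 5635396. The classes differ in site number, so the counts alone do not rank them. Without sites above 1000 reads the 5fC to 5hmC read ratio was 0.203 in sparse, 0.262 in middle and 0.404 in dense windows. Of the 18 sparse windows with a mean above 20 reads per 5hmC site, 15 had an empty part.

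Across sparse windows the numbers of the marks followed each other less closely than elsewhere. The Spearman correlation of 5hmC with 5fC sites was 0.44 over 2262 sparse windows, 0.86 over middle and 0.96 over dense windows. Each class spans a different range of 5hmC sites, and the windows share libraries and enzyme, so these values are descriptions. Reads of the marks had a correlation of 0.69 in sparse, 0.92 in middle and 0.97 in dense windows. Windows with more reads per 5hmC site had more 5fC sites per 5hmC site in each class (0.67, 0.84 and 0.86 in the same order). Those with a higher CG share had fewer (-0.46, -0.69 and -0.88). By Spearman correlation both relations were thus weakest in sparse windows. By Pearson correlation the relation with reads per site was instead strongest there, at 0.76, against 0.20 in middle and 0.58 in dense windows. For the CG share the Pearson values kept the order, at -0.57, -0.71 and -0.88.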

How the data were processed

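Genomic DNA of 6 libraries (2 technical replicates each of 5hmC and 5fC at passage 14 and of 5hmC at passage 12) stands behind 2 tables. The authors deposited, for each listed cytosine, a pooled read count that is a whole number and not scaled to depth. Per the submitters' processing notes, CASAVA, bcl2fastq, cutadapt and Bowtie were used on mm9; the sources used here give no versions, listing rule or account of which libraries were pooled. The 5hmC table was taken as that of passage 14, although the labels of passage 12 name it too. Windows of 100 kb were numbered from each chromosome's first base. A dyad is a plus-strand cytosine and the minus-strand cytosine 1 base on. Equal-read shares weight classes of reads by the sparse windows' numbers. Without values per library no test was run, and no p-value is given. Regions were named by rule: the 5 longest runs, and the 3 highest and 3 lowest windows, with at least 100 sites, by 5fC sites per 5hmC site and by reads per 5hmC site. The members, limits and rules were chosen with earlier results of these data known. Counting functions were tested on simulated data. Python 3.11.15, numpy 2.4.6, pandas 2.3.3, scipy 1.17.1 and statsmodels 0.14.6 were used.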

Additional observations from a re-analysis of the deposited data

How the results depend on the processing

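No paired analysis was possible because each table holds 1 pooled read number per cytosine, and leaving out a technical replicate and the replicate block were not run for the same reason. Of 41 alternative values 18, all shares or ratios, moved beyond counting error, which is narrow over so many sites. Counts of windows were judged by a wider fold limit and medians by equality, and none of these was called moved. The CG share of 5hmC sites was 89.1% with 100 to 200 sites per window, 88.1% with CG sites alone counted, 89.0% without chromosomes 8 and 11, 92.7% with at least 5 reads, 95.2% with at least 10 and 89.3% with all 10 parts filled, an alternative chosen after the data were seen. In the same order, without the setting that drops chromosomes, 5fC sites per 5hmC site numbered 0.121, 0.131, 0.167, 0.260 and 0.117. Dyads on both strands made up 23.4% with CG sites alone counted, 17.7% with at least 5 reads, 12.0% with at least 10 and 22.01% with filled parts. The share in runs of 2 or more was 72.8% with 100 to 200 sites, 81.6% with CG sites alone and 87.0% with runs joined across 1 window. With at least 10 reads dense windows had 0.457 5fC sites per 5hmC site, a CG share of 87.7% and 25.1% of dyads on both strands, so the order of the classes was kept. Counts of windows were between 2051 and 3152. Shifting windows by 50 kb and leaving out sites above 1000 reads moved none of the values computed under them. At a median of 6 reads per 5hmC site and 18 5fC sites per window, depth limits what can be said of single windows.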

Other observations

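The 251 autosomal windows with 1 to 49 5hmC sites continued the change seen among the sparse windows below 100 sites. They held 1119 5fC and 4772 5hmC sites, 0.234 5fC sites per 5hmC site, and 44 had no 5fC site. All parts were filled in 13 of them. Their CG share was 82.3% and 1.91% of their 5hmC sites had over 64 reads, against 0.213% in sparse windows. Marks listed on 1 strand each shared their strand in 94.8% of dyads, against 83.3%.

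Chromosome X windows with 50 to 200 5hmC sites were sparser and shallower than their autosomal counterparts, with a median of 120 sites, 6.65 mean reads per 5hmC site and 0.101 5fC sites per 5hmC site, against 0.123 on the autosomes. With sites of at least 10 reads the order of this ratio turned, to 0.282 on chromosome X and 0.260 on the autosomes. Their CG share was 91.8% and 16.9% of 5hmC dyads were on both strands. Weighted to the reads of the autosomal sparse windows, the CG share was 92.4% and the share on both strands 22.5%, beside 88.9% and 22.3% on the autosomes.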
